A study of Arabidopsis thaliana with 9 samples.

Results

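The YABBY genes FIL, YAB2, YAB3, YAB5, INO and CRC encode a family of 6 transcription factors of Arabidopsis thaliana, and their FIE occupancy is described here. A peak was assigned to a gene when it overlapped the gene body plus 5 kb on both sides by at least 1 bp. All 6 genes were matched, of 27444 protein-coding genes on the nuclear chromosomes, and 0 of 4882 knockdown peaks and 26 of 6540 wild-type peaks fell in their windows. The rule took the family as a whole and used no peak value, although the family was picked with earlier results of these data known.

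The 9 chromatin libraries came from 30 hr old Ws plants, grown on plates in long days, and fell into 3 groups of 3 biological replicates. The first group was anti-FIE chromatin from plants that carry the transgenes pRNAi-BPC and pRNAi-ZnF, called the knockdown here. The second was anti-FIE chromatin from wild-type plants with no transgene, and the third was input chromatin from the same wild type. The labels give neither the promoters of the RNA interference transgenes nor the genes they target, and these data do not measure how far those genes were silenced. The labels name no dissected tissue, and a peak averages over all cells of the plants. Fewer cells with FIE at a site and less FIE per cell cannot be told apart.

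FIE is a WD40-repeat subunit of Polycomb repressive complex 2 (PRC2), which places the repressive mark H3K27me3 on histone H3. PRC2 holds developmental regulators silent outside the cells and stages that use them. YABBY proteins are plant-specific DNA-binding proteins with a zinc finger and a YABBY domain that resembles an HMG box. FIL, YAB2, YAB3 and YAB5 are expressed on the abaxial (lower) side of leaves and floral organs, where they promote blade growth and abaxial fate. CRC acts in carpels and nectaries, and INO in the outer integument of the ovule.

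BPC proteins bind GA-repeat DNA and have been linked to PRC2 recruitment. The data allow FIE sites to be compared between the wild type and plants with the pRNAi-BPC and pRNAi-ZnF transgenes. The authors deposited 1 peak list for each anti-FIE group, and the one not named for the wild type was taken as the knockdown. There is thus no spread between replicates for any value below, and no test of a difference between the groups was possible. The summit fold is the authors' enrichment over local background, and it was ranked only within its own list. Every deposited peak had a −log10 q of at least 10, so a site below that value is missing from a list even if FIE was there. Whether further filters were applied is not stated.

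All 6 YABBY genes carried FIE peaks in the wild type and none had a FIE peak in the knockdown. In the knockdown list 0 of 6 genes had a peak over the body plus 5 kb, beside 18.4% of all protein-coding genes. In the wild-type list 6 of 6 genes had a peak, beside 35.7% of all protein-coding genes. Over the gene body alone the counts were again 0 of 6 in the knockdown list, against a background of 4.39%, and 6 of 6 in the wild-type list, against a background of 9.94%. Lacking a knockdown peak was common among bound genes, at 80.5% of the protein-coding genes with a wild-type peak in the same window. The 6 windows held 0 bp of knockdown peak and 19323 bp of wild-type peak, which was 25.1% of their 77115 bp.

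**Figure D1:**
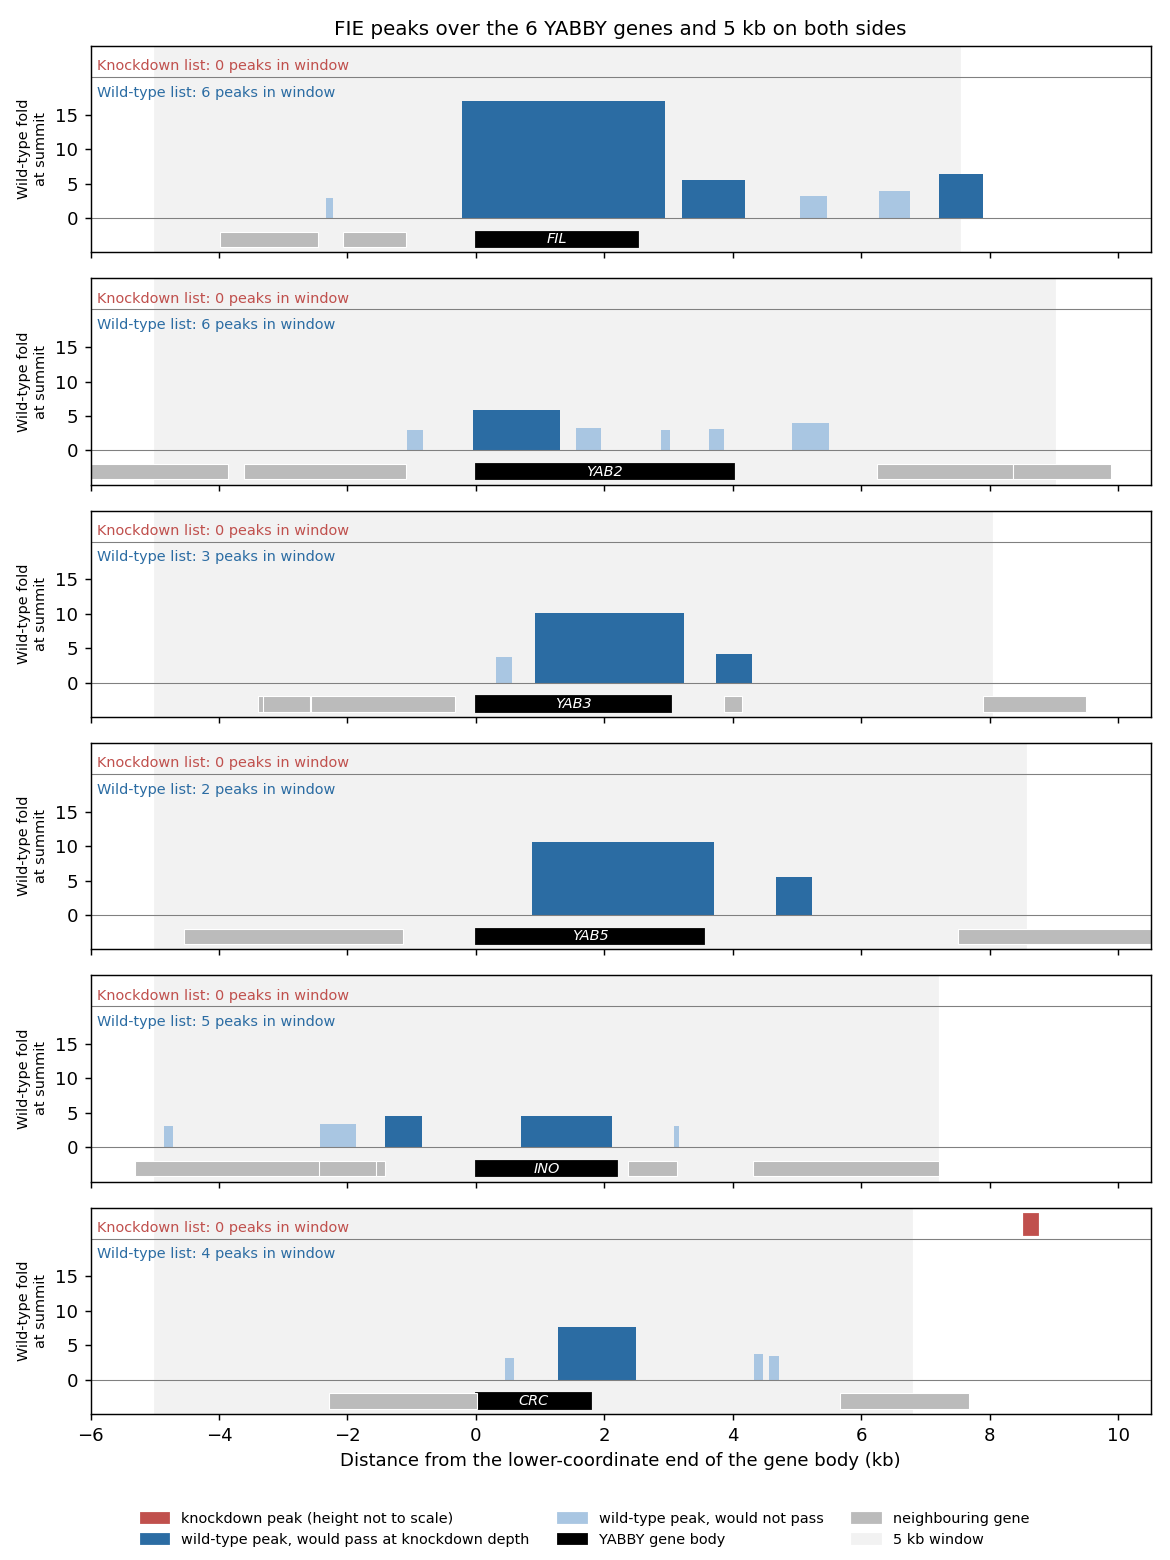
Maps of the 6 YABBY genes, with distance from the lower-coordinate end of the gene body in kb on the x axis and the wild-type fold at the summit as the height of each wild-type peak. The upper strip of each panel holds knockdown peaks, and it is empty in all 6 windows. The 1 knockdown peak drawn lies outside the CRC window, 6735 bp from the CRC body.

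FIL, which promotes abaxial fate and floral organ growth, had the highest fold of the family. No knockdown peak lay in its window, and the wild type had 6 peaks there that covered 5459 bp. The main wild-type peak spanned 3157 bp (TAIR10, chromosome 2, 18628039 to 18631195) and covered 100% of the gene body. Wild-type peaks covered the whole body of 0.375% of all protein-coding genes. The fold of the FIL peak was 16.98, place 27 among the 6540 wild-type peaks by fold and place 34 by length. Its summit lay 415 bp inside the lower-coordinate end of the body. The gene table used for placement gives no strand, so this end is not named as start or stop.

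A run of 4 further wild-type peaks lay on the higher-coordinate side of FIL, between protein-coding genes. The nearest to the gene had a fold of 5.56 over 970 bp, and the farthest, which crossed the edge of the window, had a fold of 6.41 over 675 bp. The other two had folds of 3.22 and 3.98. On the lower side a single short peak of 104 bp had a fold of 2.88, the lowest of the 26 YABBY peaks. FIE at FIL thus formed a body-wide peak with weaker peaks mostly on one flank.

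YAB3, the closest relative of FIL and its partner in leaf and floral organ polarity, had 0 knockdown peaks and 3 wild-type peaks. The main wild-type peak spanned 2321 bp (chromosome 4, 73467 to 75787) with a fold of 10.1, place 125 by fold. It lay toward the higher-coordinate end, with its summit 297 bp inside that end. A second wild-type peak inside the body had a fold of 3.75 over 244 bp. Together they covered 77.6% of the body, less than at FIL. The third, with a fold of 4.09 over 574 bp, lay 699 bp beyond the body and over the long noncoding RNA gene AT4G03525.

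YAB5, expressed in leaves with FIL and YAB3, had 0 knockdown peaks and the fewest wild-type peaks of the family, 2. The main wild-type peak was the second longest of the family at 2843 bp (chromosome 2, 11304323 to 11307165). Its fold was 10.6, place 104 by fold and place 59 by length in the wild-type list. It covered 75.6% of the body and had its summit in the interior, 2068 bp from the lower end and 1487 bp from the higher end. The other wild-type peak lay 1118 bp beyond the body, with a fold of 5.46 over 565 bp.

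YAB2, the last of the leaf-expressed members, had 0 knockdown peaks and 6 wild-type peaks, most of them weak. The strongest wild-type peak had a fold of 5.88 over 1342 bp (chromosome 1, 2675772 to 2677113) and its summit 105 bp inside the lower-coordinate end. The other 3 peaks inside the body had folds of 3.24, 2.97 and 3.05. Of the YABBY genes, YAB2 had the most separate peaks in its body, 4, which covered 51.2% of it. Outside the body, a peak of fold 2.96 lay on the lower side and a peak of fold 4.0 on the higher side.

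CRC, required for carpel and nectary development, had 0 knockdown peaks in its window and 4 wild-type peaks. The main wild-type peak had a fold of 7.64 over 1201 bp (chromosome 1, 26008633 to 26009833), place 255 by fold. Its summit lay 59 bp inside the higher-coordinate end, but most of the peak lay beyond that end. A short wild-type peak inside the body had a fold of 3.10 over 137 bp, and both together covered 36% of the body, the lowest share in the family. A pair of short peaks with folds of 3.79 and 3.37 lay 2541 and 2765 bp beyond the body.

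INO, which directs growth of the outer integument of the ovule, had 0 knockdown peaks and 5 wild-type peaks. Its body peak had a fold of 4.55 over 1425 bp (chromosome 1, 8317996 to 8319420), place 1006 by fold, and covered 64.9% of the body. A peak of nearly the same height lay 841 bp from the body on the lower side, with a fold of 4.55 over 571 bp. The INO window was the only one of the 6 with wild-type peaks over a neighbouring protein-coding gene. These 2 peaks, with folds of 3.07 and 3.45, lay over CAF2, and the stronger also lay over AT1G23410, which overlaps CAF2. A short peak of fold 3.02 lay over the long noncoding RNA gene AT1G05817.

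In 6 of 6 genes the wild-type peak with the highest fold overlapped the YABBY body by at least 1 bp. The same held for 24.7% of the 3574 protein-coding genes with at least 2 wild-type peaks in the window. In 6 of 6 YABBY genes the peak with the highest fold was also the longest, beside 66.1% of those 3574 genes. The 24.7% counts a peak again in each neighbouring window it enters, where it can lie off the body, which lowers that share. At INO the body peak led its flank peak in fold only by 4.549 to 4.546. By summit pileup or by −log10 p the flank peak was the higher there (91 against 84 fragments), and the count over the body was 5 of 6. These main peaks were 1201 to 3157 bp long. The other 20 wild-type peaks were 85 to 970 bp long, with a median of 319.5 bp, and had folds of 2.88 to 6.41 with a median of 3.41. Medians over the whole wild-type list were 252.5 bp and a fold of 3.29. Of the 26 peaks, 11 lay over a YABBY body, 13 between protein-coding genes and 2 over a neighbour. Of those off the body, 10 lay on the higher-coordinate side and 5 on the lower side.

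The order of the main wild-type peaks by fold was FIL, YAB5, YAB3, CRC, YAB2 and INO. How far neighbours in this order differ can be read only against counting error, from the summit pileup, the number of fragments over the summit, which follows from the fold and −log10 p of each peak. The pileup was 342 at FIL (95% exact Poisson interval 306.7 to 380.2), above that of every other member. It was 201 at YAB3 (174.2 to 230.8) and 197 at YAB5 (170.4 to 226.5), intervals that overlap almost wholly. It was 140 at CRC (117.8 to 165.2), 113 at YAB2 (93.1 to 135.9) and 84 at INO (67.0 to 104.0). CRC overlapped YAB2, and YAB2 overlapped INO, while CRC and INO did not overlap. These intervals cover counting error only, not variation between plants. The 4 leaf-expressed members had main folds of 5.88 to 16.98, and the carpel and ovule members CRC and INO lay at 7.64 and 4.55, so the ranges of these subgroups overlapped.

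Among all protein-coding genes the family lay toward the upper end of wild-type occupancy. The median YABBY window had 4.5 wild-type peaks, a top fold of 8.86 and 3025 bp under peaks. The median over the 9797 protein-coding genes with any wild-type peak in the window was 1 peak, a top fold of 3.36 and 378 bp. A higher top fold than at FIL was found at 39 genes (0.142% of all protein-coding genes), and a higher one than at INO, the lowest of the family, at 1795 genes (6.54%). By covered length, FIL was exceeded by 37 genes and CRC, the least covered, by 956 (3.48%). Windows of close neighbours share peaks, so these genes are not independent of each other.

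**Figure D2:**
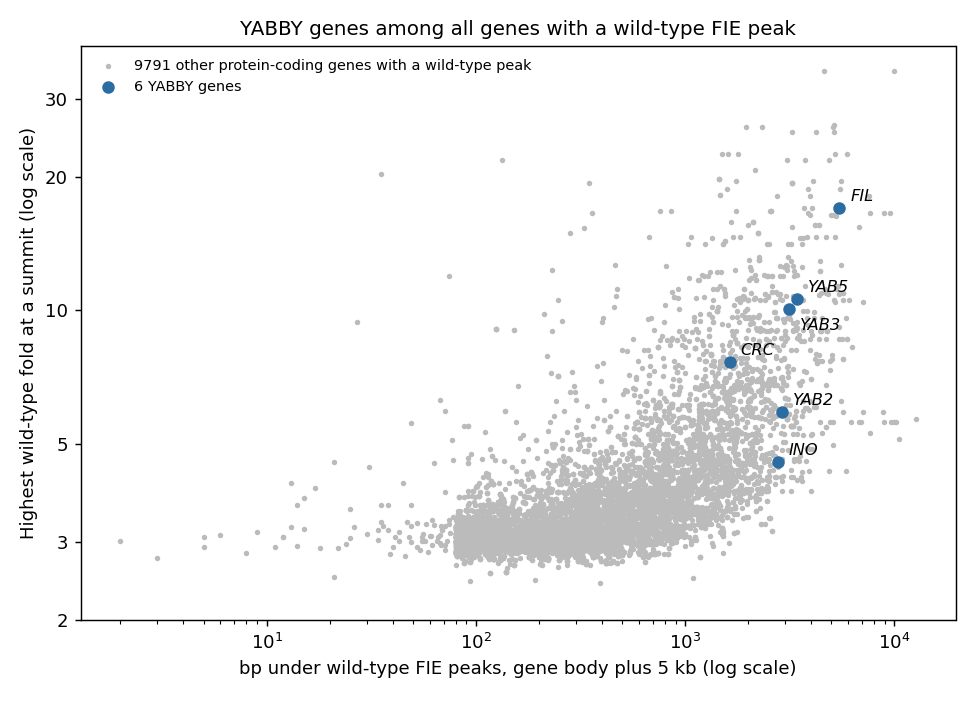
Each point is a protein-coding gene with a wild-type FIE peak over the body plus 5 kb, with the bp under wild-type peaks on the x axis and the highest wild-type fold on the y axis, both on log scales. The 6 YABBY genes (blue) range from 1635 bp at CRC to 5459 bp at FIL and lie right of the bulk of the other genes (grey).

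The knockdown list was shallower than the wild-type list, which limits what its empty windows show. The ratio of the recovered backgrounds, knockdown over wild type, had a median of 0.471 at 874 pairs of nearby summits, and this ratio was used as the relative depth. Scaled to that depth, 11 of the 26 wild-type YABBY peaks would still pass the lowest −log10 p of the knockdown list, 12.4. The scaling takes occupancy and pull-down efficiency as equal in both groups. Over the whole wild-type list 24.8% of peaks would pass. These 11 peaks included the main peak of each gene, so 6 of 6 YABBY genes had a peak that would pass, beside 9.40% of all protein-coding genes. At INO this does not hold over the counting error, since the 95% Poisson interval of its main pileup scaled to 31.6 to 49.0 fragments, against 36 needed, and the lower bound passed at 5 of 6 genes. Of the protein-coding genes with such a peak, 79.1% had no knockdown peak in the window, so lacking one was common among these genes too.

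The margin differed widely between members. At the FIL summit the wild-type pileup scaled to 161 fragments, whereas a knockdown peak would have needed 38 at that background. If that threshold alone kept the FIL summit off the list, the knockdown pileup was at most 23.0% of the scaled wild-type pileup. The same limit was 37.7% at YAB5 and 39.1% at YAB3. It was 53.0% at CRC, 67.6% at YAB2 and 88.4% at INO. At INO the scaled pileup was 39.6 and the pileup needed was 36, so most of the wild-type level could be present in the knockdown without a listed peak. These limits take the recovered background as a measure of depth and the lowest listed −log10 p as the filter that kept a peak out, and they carry no replicate error. Reading them as FIE levels also takes pull-down efficiency as equal in both groups, which these data do not measure.

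The remaining 15 wild-type peaks, with folds of 2.88 to 4.0, would not pass at the knockdown depth, and a difference was not detectable there. They included 5 of the 6 peaks at YAB2 3 each at FIL, INO and CRC, and 1 at YAB3, but none at YAB5. Counted by peak and not by gene, 0 of all 26 overlapped a knockdown peak, beside 22.4% of the whole wild-type list. Of the 11 that would pass 0 did, beside 41.9% of such peaks over the genome. Some of the 11 passed only narrowly. The YAB3 peak 699 bp beyond the body scaled to 40.1 fragments against 39 needed. At INO the peak 841 bp from the body scaled to 42.9 against 38, and the body peak to 39.6 against 36. Most of the wild-type level could be present there without a listed knockdown peak. By gene, lacking a knockdown peak was common, at 79.1% of protein-coding genes with a peak that would pass.

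**Figure D3:**
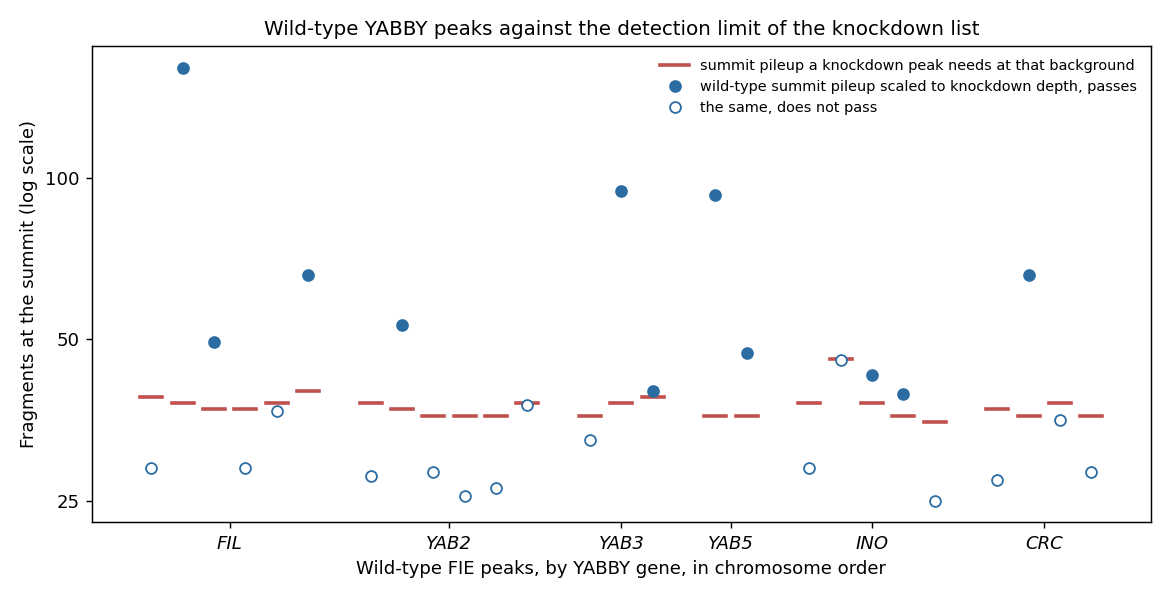
For each of the 26 wild-type YABBY peaks, the blue circle gives the wild-type summit pileup scaled to the knockdown depth, filled where it would pass, and the red bar the pileup that a knockdown peak needs at that background, in fragments on a log scale. The main peaks of FIL, YAB3 and YAB5 stand far above their bars, and those of INO just above.

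The nearest knockdown peak to a YABBY body lay 6735 bp from CRC (chromosome 1, 26015876 to 26016091, fold 4.58), over FLN2. This was the one knockdown peak between 5 and 10 kb of any member. At the other genes the nearest knockdown peak was 19.1 kb away at YAB3, 45.5 kb at FIL, 58.6 kb at YAB2, 59.1 kb at INO and 66.5 kb at YAB5. In the wild-type list 5 further peaks lay between 5 and 10 kb of a member, near FIL, YAB3 and INO, with folds of 2.86 to 4.93. The strongest of these lay over AT4G00160 on the YAB3 side, and the one of fold 4.57 near FIL lay over HAM1, a GRAS-family meristem gene. Just inside the edge of a window, the FIL peak of fold 6.41 lay 4686 bp from the body and the INO peak of fold 3.07 lay 4718 bp from it.

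The deposited peak numbers of both lists have gaps where calls were left out, including gaps in the intervals around YABBY genes. The numbers run to 35125 in the wild-type list, of which 18.6% are listed. In the knockdown list they run to 40491, of which 12.1% are listed. Between the wild-type peaks of the 6 YABBY windows 13 numbers were missing. Between the knockdown peaks that flank FIL, 178.2 kb apart, 41 peak numbers were missing from the knockdown list, or 2.30 per 10 kb. The rate was 2.43 per 10 kb around YAB2, 2.37 around YAB5, 2.02 around INO, 1.01 around CRC and 3.99 around YAB3. Over the genome it was 3.00 per 10 kb. Each of these intervals thus held knockdown calls at positions that the list does not give. Whether any of these knockdown calls fell in a YABBY window is not known.

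Of the 19 genes whose bodies lay within 5 kb of a member, 0 had a knockdown peak over the body and 4 had a wild-type peak. Among the 17 that are protein-coding the counts were 0 in the knockdown list and 2 in the wild-type list, beside 4.39% and 9.94% of all protein-coding genes. These 4 genes were CAF2 and AT1G23410 beside INO, and the noncoding genes AT1G05817 and AT4G03525. No wild-type peak lay over AT2G45180 or ATG8E beside FIL, over HDA08 or SSL3 beside YAB2, or over WEB1 or RPN13 beside YAB5. AT1G69170, whose body overlaps that of CRC, had none either.

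The regulators that act with YABBY genes in organ polarity were bound in part. Of 13 such genes, 0 had a knockdown peak in the window and 9 had a wild-type peak, against the 18.4% and 35.7% of all protein-coding genes. Only 4 of the 13 had a wild-type peak that would pass at the knockdown depth, beside 9.40% of all protein-coding genes. At the other bound genes, PHB, ATHB8, AS1, AS2 and ARF3, a difference was not detectable. The KANADI genes KAN1, KAN2, KAN3 and KAN4, which like the YABBY genes promote abaxial fate, had top wild-type folds of 8.13, 5.63, 5.49 and 5.39, and each had a peak that would pass at the knockdown depth. The adaxial (upper side) HD-ZIP III genes PHV, REV and CNA had no wild-type peak. PHB had a weak one of 3.22 off the gene body, and ATHB8 a weak one of 3.27 over the body. AS2, another adaxial regulator, had a wild-type fold of 4.06. Its partner AS1 had 3.77, off the gene body. The auxin response factor gene ARF3 (ETT), which acts with KANADI, had 3.18 off the body, and ARF4 had no peak. The KANADI genes thus had the highest folds of this list. By bp under wild-type peaks, AS2 (2124) lay above KAN3 (1601) and KAN4 (1483), but below KAN1 (3954) and KAN2 (2517). A link between fold and organ side was not tested.

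KNOX homeobox genes, which maintain the shoot meristem and are repressed in leaves with YABBY participation, had a peak at 0 of 4 genes in the knockdown list and 4 of 4 in the wild-type list, beside 18.4% and 35.7% of all protein-coding genes. The STM window had the highest wild-type fold, 26.1, followed by KNAT1 at 7.41, KNAT6 at 4.65 and KNAT2 at 3.10. KNAT2 was the one without a peak that would pass at the knockdown depth.

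Carpel and ovule regulators, several of which act upstream of or beside CRC and INO, had a knockdown peak at 2 of 11 genes and a wild-type peak at 10 of 11, beside 18.4% and 35.7% of all protein-coding genes. AG, the MADS-box gene of carpel identity that activates CRC, had 408 bp of knockdown peak and 5199 bp of wild-type peak in its window. NGA1 had 76 bp of knockdown peak, off its body, and 4202 bp of wild-type peak. The wild-type folds were 14.7 at AG, 12.0 at NGA2, 7.47 at the ovule gene BEL1 and 5.86 at SUP, which restricts INO expression. SPT, a carpel bHLH gene, had no peak in either list. All 10 bound genes had a wild-type peak that would pass at the knockdown depth, beside 9.40% of all protein-coding genes. Of these, 8 had no knockdown peak, near the 79.1% of all genes with such a peak.

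The last list held corepressor genes whose products work with YABBY proteins, and some of these had knockdown peaks nearby. Of SEU, LUG, LUH, SLK1, SLK2 and SLK3, 3 had a knockdown peak in the window and 4 had a wild-type peak, beside 18.4% and 35.7% of all protein-coding genes. The knockdown peaks were short, at 82 bp near SEU, 142 bp near LUH and 87 bp near SLK2, and none lay over the gene body. In the wild type the folds were 4.76 at SEU, 4.42 at LUG, 4.11 at LUH and 3.36 at SLK3, and of these genes SEU alone had a wild-type peak over its body. The series held no input from knockdown plants. These lists were described by counts, with no test of a difference between them.

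**Figure D4:**
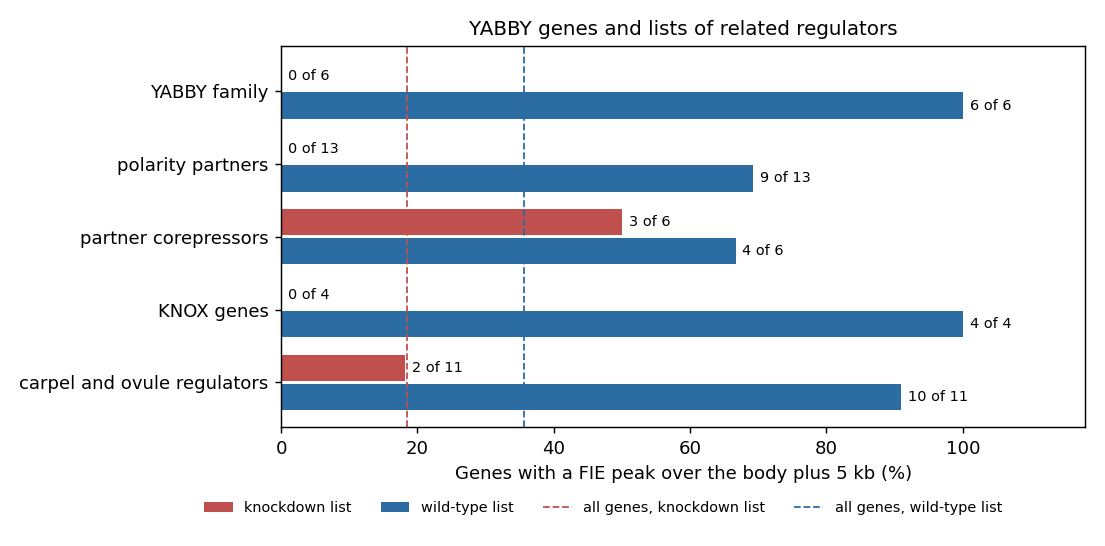
Share of genes with a FIE peak over the body plus 5 kb, in percent, in the knockdown list (red) and the wild-type list (blue), for the YABBY family and 4 lists of related regulators. Dashed lines mark the shares of all protein-coding genes, 18.4% in the knockdown list and 35.7% in the wild-type list.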

How the data were processed

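Each anti-FIE group had 1 deposited narrowPeak list. Bowtie2, MACS2 (2.1.0.20151222), bedtools and TAIR10 appear in the submitters' processing notes without steps. They do not say how replicates and input were combined. For each peak the authors deposited a fold ratio, −log10 p-value and −log10 q-value, the position of the summit and a score, which was 10 times −log10 q as a whole number. The list whose name holds an abbreviation was taken as the knockdown, the 1 anti-FIE group left.

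Depth per library is unknown. Summit pileup and background were recovered from the authors' fold (pseudocount 1) and −log10 p under a Poisson model, with a largest misfit of 0.000727. On data simulated under the same model, 100% of 1000 pileups were recovered. This checks the calculation only, not whether the deposited values follow the model. The relative depth was the median background ratio at summits within 30 bp of each other. It assumes equal fragment length in both lists.

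Gene positions came from the RefSeq table of TAIR10.1 (no strand), with nuclear sequences taken as identical to TAIR10; printed coordinates are the authors'. The reference is Columbia, the plants Ws. All 6 members matched by symbol or synonym, and ARF3 was taken as ETT. The text names the 6 members, the members of 4 further lists, neighbours within 5 kb and the 2 genes next above and below each member by top fold. FLN2, AT4G00160 and HAM1, under peaks 5 to 10 kb from a member, were named after their values were seen. Members and lists were chosen with earlier results of these data known. Python 3.11.15, numpy 2.4.6, pandas 2.3.3 and scipy 1.17.1 were used.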

Additional observations from a re-analysis of the deposited data

How the results depend on the processing

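With windows of the body alone, of 1 kb or 10 kb, with the summit inside the window, with the peaks at or above the median −log10 q of each list, and without peaks over other protein-coding genes (added after seeing the data), 6 of 6 YABBY genes kept a wild-type peak. Under the 10 kb window 1 gene, CRC, had a knockdown peak, and the number of knockdown peaks was 1; under the other settings both were 0. The number of wild-type peaks, 26, was 11 over the body alone, 17 with 1 kb and 16 above the median −log10 q, since fewer peaks could count. Peaks shared with the knockdown stayed at 0 under overlap of 0.5 of the peak, summits within 200 bp, any knockdown peak within 1 kb and the peaks above the median −log10 q. Genes with a peak that would pass at the knockdown depth stayed at 6 under the 5th percentile of −log10 p, the ratio of lowest backgrounds and the body alone. The depth limits the knockdown values most at INO and YAB2. No paired analysis was possible because each group has 1 deposited list, and for the same reason no replicate could be left out. Promoter motifs, with their alternatives, were not run, since no sequence was used here.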

Other observations

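By top wild-type fold over the body plus 5 kb, the 2 protein-coding genes next above and the 2 next below each member fill 24 places. In 14 of them the gene lies beside the member and owes its value to the same peak. The other 10 are AT3G51050 and AT3G51070 above FIL (both 18.1), AT3G47580 above YAB3 (10.2), POK2 and AT3G19085 above YAB5 (both 10.6), BBX28 above and VIM1 below CRC (7.67 and 7.62), BLH8 and CPN60A above YAB2 (both 5.88) and MYB21 below INO (4.55). Among these 10, POK2 was the 1 gene with a knockdown peak in its window. Pairs with equal values are close neighbours in the gene table. The likeness rests on 1 value per gene in 1 list.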
